A study of Mus musculus with 16 samples.

Results

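The 9 genes described here, Trim67, Tent5b, Lrg1, Fam89a, Adarb1, Gcnt1, Adamts1, Cxcl12 and Cav1, are less familiar as glucocorticoid responders and were chosen by their measured levels, which were higher on arrays Dex 1 and 2 than on arrays Vehicle 1 and 2. All 9 were found among the 19096 genes named on the arrays, and all 9 were among the 17771 genes tested. Of these 17771, 13030 had a symbol, and 4741 were accessions without a symbol, each counted as a gene. The cells were HL-1, an immortalised line of mouse atrial cardiomyocytes grown in Claycomb medium, so every sample is the same cell line without the other cells of the heart. They received PBS as the vehicle (Vehicle), 100 nM of the synthetic glucocorticoid dexamethasone (Dex), 10 nM of estradiol (E2) or both agents together (Dex+E2), each for 6 h. Each treatment had 4 single-colour Agilent arrays numbered 1 to 4, and the study states 4 independent experiments. An array is called here by its label and number, as in Dex 3. A level is the log2 of a probe's processed signal after the 75th percentile of its array is subtracted, and a difference is between such levels.

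Glucocorticoids enter the cell and bind the glucocorticoid receptor, which moves to the nucleus and binds DNA elements made of a pair of AGAACA-like motifs facing each other. In cardiomyocytes this receptor controls genes of contraction, metabolism and the circadian clock, and Per1, a repressor of the clock, is among its best-known direct targets. Estradiol acts through estrogen receptors that bind other elements, and the responses to both hormones meet in heart muscle. The genes of the set have unlike roles. Lrg1, Adamts1 and Cxcl12 encode secreted proteins, Cav1 a protein of the cell membrane, Trim67, Tent5b, Adarb1 and Gcnt1 enzymes that act inside the cell, and Fam89a a protein of little known function.

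Per1 went against the labels of 4 arrays, so the labels alone do not say which arrays carried a glucocorticoid response. It was at -1.11 on Vehicle 3 and 1.75 on Vehicle 4, and at -1.15 on Dex 3 and 1.99 on Dex 4. On E2 3 and E2 4 it was at -1.29 and 1.95, and on Dex+E2 3 and Dex+E2 4 at -1.11 and 1.95. Of all 16 arrays, 8 had Per1 at 1.75 to 1.99, namely number 4 of every label and numbers 1 and 2 of Dex and of Dex+E2, and the other 8 had it at -1.29 to -0.75. Grouped by Per1, the 16 arrays are compared by the range of their levels only, with no mean and no test. This is because the kinds are read from a measured gene. The later fit of number 4 against number 3 does test arrays of both kinds against each other, since kind and number coincide there. The 75th percentile ran from 402 to 557 intensity units, 58.6% to 65.6% of the probes on an array stood well above background, and 0 were saturated. Cardiomyocyte markers were well above background on all 16 arrays for 9 of 9 genes. The defining endothelial genes Pecam1 and Cdh5 and the leukocyte genes Ptprc and Adgre1 were on 0. Other markers were present on all 16: 1 of 5 endothelial (Kdr), 2 of 5 leukocyte (Cd68 and Cd3e) and 4 of 6 fibroblast genes. So were 3 of 4 smooth muscle and 2 of 2 ventricular genes. Precision is limited by how few arrays each group has.

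Promoter sequences are shown for 3 members that stand for different situations: Cav1, the one printed with a glucocorticoid-type motif before its start, and Fam89a and Lrg1, whose neighbouring genes are described further on. Each line gives the 250 bases before the RefSeq transcription start, 5′ to 3′ on the strand of the gene, from assembly GRCm38.p6. Capitals mark AGAACA, the motif bound by a single receptor molecule.
Cav1, chr6:17306085-17306334, plus strand: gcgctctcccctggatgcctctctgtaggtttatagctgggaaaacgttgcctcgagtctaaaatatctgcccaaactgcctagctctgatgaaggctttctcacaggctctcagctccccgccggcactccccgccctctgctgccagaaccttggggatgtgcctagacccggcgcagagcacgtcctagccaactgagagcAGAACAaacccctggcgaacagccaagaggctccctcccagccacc
Fam89a, chr8:124751867-124752116, minus strand: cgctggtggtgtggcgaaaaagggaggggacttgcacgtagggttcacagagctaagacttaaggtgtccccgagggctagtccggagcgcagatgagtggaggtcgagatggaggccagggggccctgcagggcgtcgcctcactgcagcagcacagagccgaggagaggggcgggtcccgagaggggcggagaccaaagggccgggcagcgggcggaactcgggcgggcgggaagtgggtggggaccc
Lrg1, chr17:56121947-56122196, minus strand: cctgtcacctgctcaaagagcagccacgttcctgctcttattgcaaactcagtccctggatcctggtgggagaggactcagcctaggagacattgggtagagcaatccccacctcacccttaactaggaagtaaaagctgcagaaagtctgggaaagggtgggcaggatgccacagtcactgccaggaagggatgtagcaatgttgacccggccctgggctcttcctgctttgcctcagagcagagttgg

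Motifs were searched on both strands of the 250 bases before every start in the promoter table, which held all 9 members. The palindromic element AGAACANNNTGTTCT was in 0 of 9 members and in 0.011% of the 27025 genes in the table. The looser GNACANNNTGTNC, of which the first is a special case, was in 0 of 9 members and 0.44% of genes. AGAACA alone was found in Cav1, at position -46 from the start, and on the opposite strand in Gcnt1, at position -99. That is 2 of 9 genes, where 18.2% of all genes in the table had the motif before at least 1 start. The estrogen-type element GGTCANNNTGACC and the clock-type element CACGTG were each in 0 of 9 members, and in 0.067% and 6.86% of genes. A missing match says only that these letters are not in this window.

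The values that chose the members are given as a description. On Vehicle 1 and 2 against Dex 1 and 2, Trim67 was at -4.55 and -4.43 against 0.01 and -0.08, and Tent5b at -2.90 and -2.69 against -0.01 and 0.05. Between these pairs the mean difference of the 9 genes ran from 0.83 for Gcnt1 to 4.46 for Trim67, with a median of 1.67. Levels of the pairs did not overlap, higher for Dex, in 19.5% of genes on these 4 arrays, so lack of overlap there is common. The other 12 arrays, which the pick did not use, hold 2 Vehicle, 2 Dex, 4 E2 and 4 Dex+E2 arrays. Earlier results on these arrays were known when the genes were proposed, so what follows describes the members and is no independent proof of a response.

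**Figure D1:**
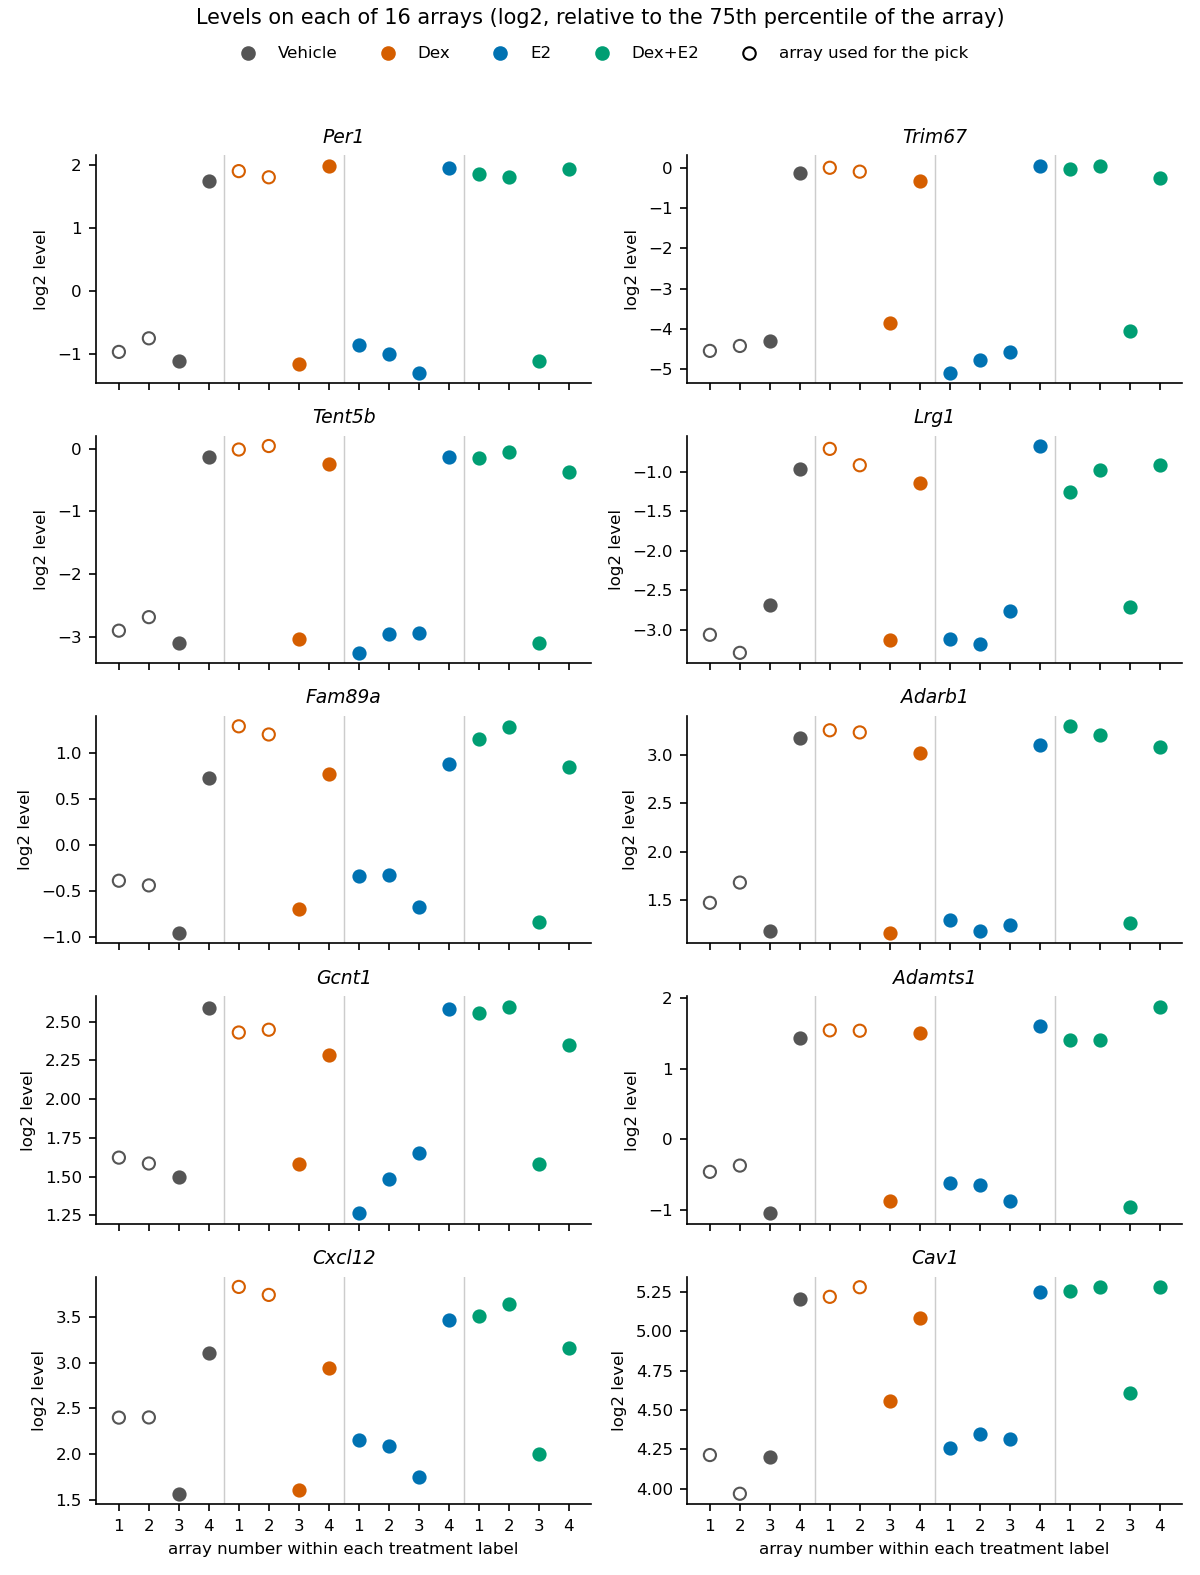
Level of Per1 and of each of the 9 genes on the 16 arrays (log2, 75th percentile of the array set to 0), by treatment label (colour) and array number, with open circles for the 4 arrays used for the pick. In every panel Vehicle 4 and E2 4 sit with the high points and Dex 3 and Dex+E2 3 with the low ones.

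All 9 genes followed Per1 rather than the label on the 12 arrays. Every level on the 6 arrays with Per1 above 0 exceeded every level on the 6 with Per1 below 0, for each of the 9 genes, where 2.84% of genes showed this. The gap between the lowest high level and the highest low level was widest for Trim67, at 3.55, and narrowest for Cav1, at 0.48. With another background correction, described below, 7 of 9 genes were without overlap between the arrays with Per1 above and below 0.

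Among the secreted proteins, LRG1 is a leucine-rich glycoprotein that alters TGF-beta signalling in vessels. Lrg1 was at -2.69, -3.12, -2.76 and -2.71 on the arrays numbered 3 labelled Vehicle, Dex, E2 and Dex+E2, and at -0.97, -1.14, -0.68 and -0.91 on those numbered 4. On E2 1 and 2 it was at -3.11 and -3.18, and on Dex+E2 1 and 2 at -1.25 and -0.98. All 4 arrays numbered 4 were high, also Vehicle 4 and E2 4, and all 4 numbered 3 were low. ADAMTS1 is a secreted metalloprotease that cuts the proteoglycans versican and aggrecan. Adamts1 was at -1.05, -0.87, -0.88 and -0.97 on the arrays numbered 3 in the same order of labels, and at 1.44, 1.50, 1.61 and 1.88 on those numbered 4. It was at -0.62 and -0.65 on E2 1 and 2 and at 1.41 on both Dex+E2 1 and 2. Again the high arrays numbered 4 and the low arrays numbered 3 stood apart within every label. CXCL12 is a chemokine that draws cells through the receptor CXCR4. Cxcl12 was at 1.57, 1.61, 1.76 and 2.00 on the arrays numbered 3 and at 3.10, 2.94, 3.47 and 3.15 on those numbered 4. E2 1 and 2 gave 2.16 and 2.09, Dex+E2 1 and 2 gave 3.51 and 3.64. Here the low arrays were not all alike, since E2 1 and 2 lay above the 4 arrays numbered 3.

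CAV1 is the main structural protein of caveolae, small pits of the cell membrane. Cav1 was at 4.20, 4.56, 4.32 and 4.61 on the arrays numbered 3 labelled Vehicle, Dex, E2 and Dex+E2, and at 5.20, 5.09, 5.25 and 5.28 on those numbered 4. On E2 1 and 2 it was at 4.26 and 4.35, and on Dex+E2 1 and 2 at 5.26 and 5.28. Dex 3 and Dex+E2 3 were the 2 highest of the low arrays but stayed below every high array.

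TRIM67 is an E3 ubiquitin ligase known from neurons, where it acts with netrin signalling. Trim67 was at -4.32, -3.86, -4.58 and -4.05 on the arrays numbered 3 in that order of labels, and at -0.11, -0.31, 0.06 and -0.25 on those numbered 4. E2 1 and 2 were at -5.09 and -4.77, and Dex+E2 1 and 2 at -0.01 and 0.05. Its probe was well above background on all 16 arrays, but how low the low levels lie depended on the background correction. From number 3 to number 4 Trim67 rose by 4.05, and by 1.08 with another correction described below. TENT5B, formerly FAM46B, is a non-canonical poly(A) polymerase that lengthens the tails of messenger RNAs. Tent5b was at -3.10, -3.03, -2.94 and -3.10 on the arrays numbered 3 and at -0.12, -0.25, -0.14 and -0.37 on those numbered 4. On E2 1 and 2 it was at -3.26 and -2.96, and on Dex+E2 1 and 2 at -0.14 and -0.05. Within either side the 12 levels of Tent5b differed far less than the 2.57 that separated the sides. ADARB1, also called ADAR2, edits adenosine to inosine in RNA. Adarb1 was at 1.18, 1.16, 1.24 and 1.26 on the arrays numbered 3, at 3.17, 3.01, 3.10 and 3.08 on those numbered 4, at 1.29 and 1.18 on E2 1 and 2, and at 3.29 and 3.21 on Dex+E2 1 and 2. GCNT1 makes the core 2 branch of mucin-type sugar chains. Gcnt1 was at 1.49, 1.58, 1.65 and 1.58 on the arrays numbered 3, at 2.59, 2.28, 2.58 and 2.35 on those numbered 4, at 1.26 and 1.48 on E2 1 and 2, and at 2.55 and 2.60 on Dex+E2 1 and 2. Both enzymes again followed the number 3 against number 4 divide within all 4 labels. Fam89a was at -0.96, -0.70, -0.67 and -0.84 on the arrays numbered 3 and at 0.73, 0.77, 0.88 and 0.85 on those numbered 4. On E2 1 and 2 it was at -0.34 and -0.33, and on Dex+E2 1 and 2 at 1.16 and 1.28. For Fam89a the arrays numbered 1 and 2 lay above their counterparts numbered 3 and 4 on the high side and on the low side.

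Whether dexamethasone raised these genes in the presence of estradiol was examined with the 4 Dex+E2 arrays against the 4 E2 arrays. Limma called 0 of 17771 genes (0%) at a Benjamini-Hochberg adjusted p under 0.05, while 754 (4.24%) had an unadjusted p under 0.05, and 0 of 9 members were called. The members' differences were all positive, from 0.53 for Gcnt1 to 2.53 for Trim67 with a median of 0.97, where 49.2% of all genes were positive. Trim67 was at -1.07 ± 1.99 (SD, n = 4) for Dex+E2 and -3.60 ± 2.45 (SD, n = 4) for E2, a difference of 2.53 with a 95% interval from -0.60 to 5.66 (limma adjusted p = 0.939). Cav1 was at 5.11 ± 0.33 (SD, n = 4) and 4.54 ± 0.47 (SD, n = 4), a difference of 0.56 with an interval from -0.04 to 1.17 (limma adjusted p = 0.939). For all 9 genes the interval included 0 and the adjusted p was 0.939. These sizes depended on the background correction: with normexp, an alternative that fits the background and adds an offset, Trim67 differed by 0.41 and Tent5b by 0.32 in place of 1.41, Lrg1 turned to -0.059, and Adarb1 had the largest difference, at 1.07. A p above the threshold does not show that the groups were alike. Split by array number, the differences fell into unlike pairs. They were between 1.00 and 5.09 for number 1 and between 0.94 and 4.82 for number 2. They were between -0.17 and 0.53 for number 3 and between -0.32 and 0.27 for number 4. Slide 4 held both labels with numbers 3 and 4, and within it the members differed by -0.20 to 0.16. With slide as a fixed block the median difference of the members was -0.033, and the direction turned for Tent5b, Lrg1, Fam89a, Adarb1, Gcnt1 and Cxcl12. That fit rests on slide 4 alone for this contrast, so it repeats the values within slide 4 and is no second check. Each label had 1 high and 1 low array on that slide. With slide as a random block no member changed direction. Leaving out E2 4, which was high for every member, moved the members' median from 0.97 to 1.47, and leaving out Dex+E2 3, which was low, moved it to 1.38, with 0 members called in either case.

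**Figure D2:**
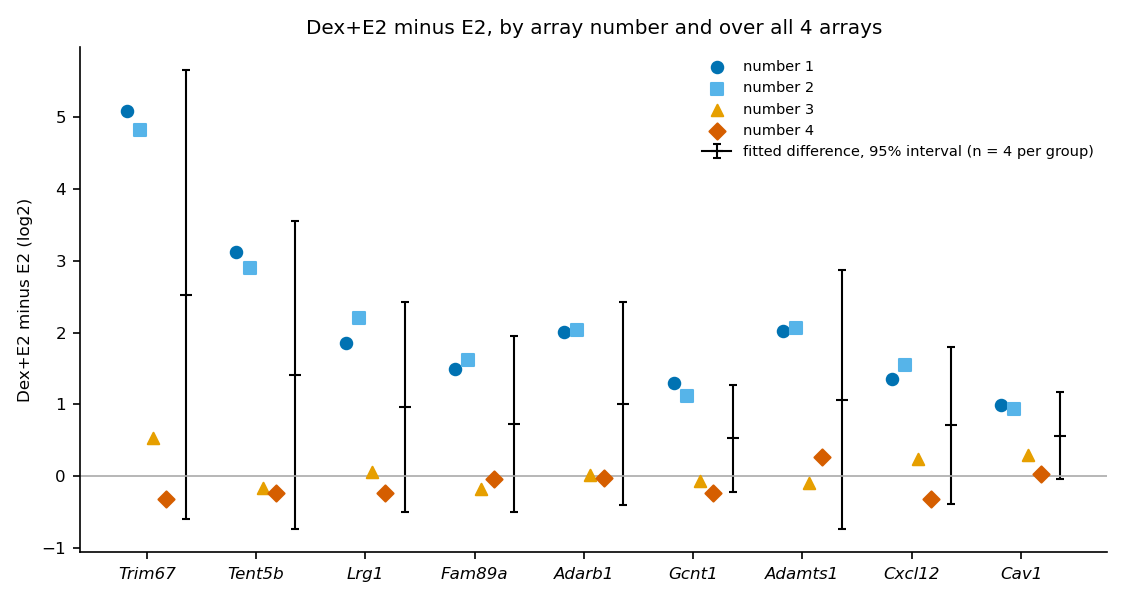
Difference in log2 level between the arrays labelled Dex+E2 and E2 for each gene, by array number (symbols), beside the fitted difference over 4 arrays per label with its 95% interval (bars). For numbers 1 and 2 all differences are 0.94 or more, for numbers 3 and 4 they lie between -0.32 and 0.53, and every interval includes 0.

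The contrast of the pick itself was repeated on the arrays it did not use, Dex 3 and 4 against Vehicle 3 and 4. The members differed by -0.30 for Lrg1 to 0.15 for Fam89a, with a median of -0.025 (SE between 0.39 and 2.01, n = 2 per group). None was called, with an adjusted p of 1 for all 9, and over all genes limma made 0 calls (0%), while 866 genes (4.87%) had an unadjusted p under 0.05. Intervals were wide, for Trim67 from -4.29 to 4.56 around 0.13, because each label held 1 high and 1 low array. Number by number, Dex 3 minus Vehicle 3 lay between -0.43 and 0.46 over the 9 genes, and the median of Dex 4 minus Vehicle 4 was -0.16. With slide as a fixed block the median difference became -1.83, since slides 2 and 3 then link the labels through E2 1 and 2 and Dex+E2 1 and 2.

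Estradiol was the subject of the remaining contrasts, none of which called a member. Against Vehicle 3 and 4, the arrays labelled E2 differed by -1.38 for Trim67 to 0.03 for Cxcl12, with 0 genes called (0%) and 534 (3%) at an unadjusted p under 0.05. Against Dex 3 and 4, the arrays labelled Dex+E2 differed by 0.28 for Cav1 to 1.01 for Trim67, with 0 genes called (0%) and 1189 (6.69%) at an unadjusted p under 0.05. The interaction, which asks whether the Dex difference depends on estradiol, ran from 0.44 for Cav1 to 2.40 for Trim67, with 0 genes called (0%) and 503 (2.83%) at an unadjusted p under 0.05. These contrasts share the Vehicle and Dex arrays with one another, and each group mixed high and low arrays, so the SE of the interaction reached 2.47 for Trim67. Single arrays decided these values. The members' median for E2 against Vehicle, -0.33, became -1.46 without Vehicle 3, 0.72 without Vehicle 4 and -0.91 without E2 4. That for Dex+E2 against Dex, 0.62, became -0.30 without Dex 3, 1.55 without Dex 4 and 1.11 without Dex+E2 3. The median of the interaction, 0.94, became 2.10 without Vehicle 3, 0 without Vehicle 4, 0.17 without Dex 3, 2.02 without Dex 4, 1.53 without E2 4 and 1.58 without Dex+E2 3.

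Of the 6 comparisons fitted on arrays outside the pick, number 4 against number 3 was the one in which members were called. Over the 8 arrays numbered 3 and 4, with label as a block, all 9 genes rose on number 4, where limma called 552 genes (3.11%), 285 of them higher (1.6%). Both numbers of a label shared a slide and a treatment label, so neither differs within these pairs. Per1 was high on every array numbered 4 and low on every array numbered 3. The fit thus compares arrays that the Per1 ranges had already separated for these genes, and its calls are no separate support. The labels do not say whether each number stands for an independent experiment. If it does, the SE and p-values of this fit cover only the spread between labels, not between experiments. Trim67 rose by 4.05 ± 0.18 (SE, n = 4 per number, limma adjusted p = 0.000476), the largest increase of any gene tested at this background setting. Tent5b rose by 2.82 ± 0.07, or 7.08-fold (adjusted p = 0.000106), and Adamts1 by 2.55 ± 0.09 (adjusted p = 2e-04). Per1 rose by 3.08 ± 0.08 in the same fit. The middle of the set held Lrg1 at 1.90 ± 0.09, Adarb1 at 1.88 ± 0.06, Fam89a at 1.60 ± 0.07 and Cxcl12 at 1.43 ± 0.10, with adjusted p between 0.000112 and 0.00174. Gcnt1 rose by 0.87 ± 0.08 (limma adjusted p = 0.0047), and Cav1 by 0.78 ± 0.10, or 1.72-fold (limma adjusted p = 0.0138). Each gene was higher on number 4 in 4 of 4 labels, and all 4 levels on number 4 exceeded all 4 on number 3, where 4.65% of genes showed this. The median difference of the 9 genes was 1.88, while 38% of all genes were positive.

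Label by label, number 4 minus number 3 lay between 1.00 and 4.20 for Vehicle, 0.53 and 3.55 for Dex, 0.93 and 4.64 for E2, and 0.67 and 3.80 for Dex+E2. Number 2 minus number 1 lay between -0.11 and 0.32 for all 9 genes in E2 and Dex+E2, the labels outside the pick. In every label number 4 lay at the slide position after number 3, and number 2 at the position after number 1. Number and position cannot be told apart within a pair, and the part of position was not tested. The sources used here do not say what the numbers stand for in the laboratory. When the 4 other unused arrays were added to the fit with number as a term, 6 of 9 genes were called, and Trim67 (adjusted p = 0.0568), Cav1 (0.0563) and Gcnt1 (0.125) were not. Cav1 was also lost when E2 3 or E2 4 (adjusted p = 0.0921 and 0.0907) or Dex+E2 3 or Dex+E2 4 (0.06 and 0.0594) was left out. Leaving out either array of a label takes the whole pair out of this fit. The Cav1 difference was therefore the same without E2 3 or E2 4, at 0.735, and without Dex+E2 3 or Dex+E2 4, at 0.821. Lrg1 was lost with normexp background correction, at 0.36 (adjusted p = 0.136). With normexp Trim67 rose by 1.08 in place of 4.05, Tent5b by 1.01 in place of 2.82, Adamts1 by 1.69 in place of 2.55 and Fam89a by 0.92 in place of 1.60, all still called. Trim67 then came after Adarb1, at 1.72, and Adamts1, so the order of the members by size depends on the background correction.

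**Figure D3:**
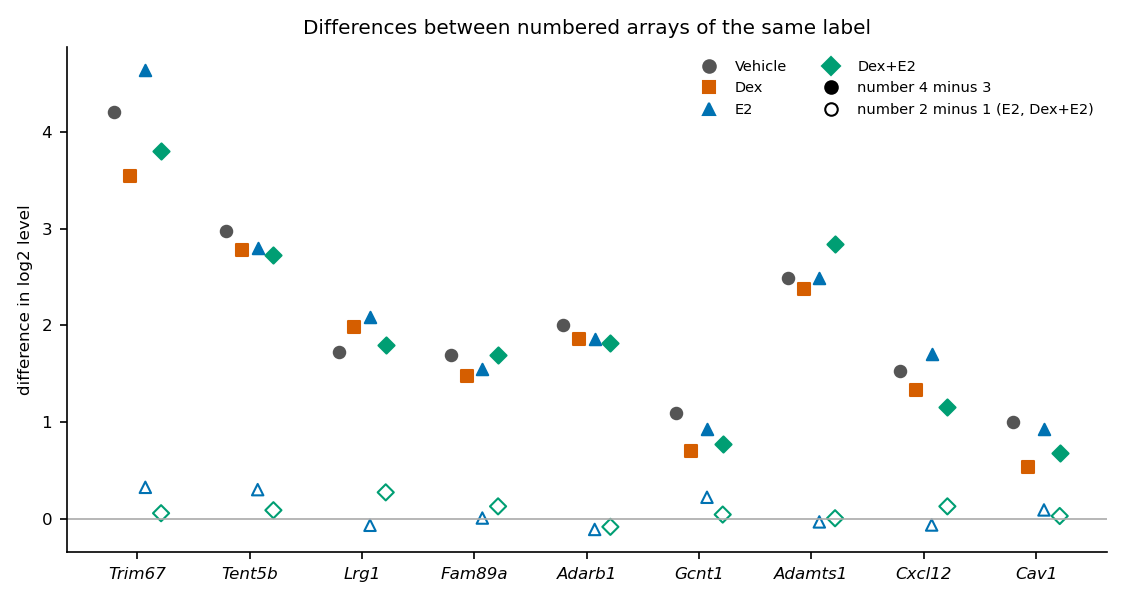
Difference in log2 level between arrays of the same label for each gene, number 4 minus number 3 (filled) and, for E2 and Dex+E2, number 2 minus number 1 (open). Filled points lie between 0.53 and 4.64, and open points between -0.11 and 0.32.

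Where a gene had further probes, they moved the same way from number 3 to number 4 in all 4 labels. The second probe of Cav1 differed by 1.08 ± 0.16 (SD over 4 labels), that of Adarb1 by 1.83 ± 0.20 and that of Adamts1 by 2.71 ± 0.22. For Gcnt1 the other 2 probes differed by 0.90 ± 0.10 and 0.95 ± 0.05. Cxcl12 has several transcript forms, and a second probe, named by a different RefSeq transcript, differed by 0.86 ± 0.20 where the probe used differed by 1.43. Trim67, Tent5b, Lrg1 and Fam89a had 1 probe each that could be named.

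Most relatives and partners of the 9 proteins were not called. Of 77 such genes listed, 53 were tested, and from number 3 to number 4 limma called 4 higher and 4 lower, against 3.11% of all genes, with a median of -0.053. In Dex+E2 against E2 and in Dex against Vehicle on numbers 3 and 4, 0 of the 53 were called. The glycan enzymes beside Gcnt1 had 2 of 5 tested genes higher: Gcnt2, which branches poly-lactosamine chains, by 0.73 ± 0.09 (adjusted p = 0.0123), and St3gal1, a sialyltransferase that competes with GCNT1 for the same core sugar, by 0.75 ± 0.13 (adjusted p = 0.0387). The core 1 synthase gene C1galt1 was at 0.21 and the selectin ligand gene Selplg at 0.29, both not called. Caveolar genes had 1 of 10 higher, Cav2, the partner of CAV1 in caveolae, by 0.42 ± 0.06 (adjusted p = 0.0232), and 1 lower, Nos3, the endothelial nitric oxide synthase that CAV1 binds, at -0.53 ± 0.09 (adjusted p = 0.0351). The muscle cavin gene Cavin4 was at -0.58 and Pacsin3 at -0.43, both not called.

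Other proteases of the ADAMTS family went both ways. Adamts9, which also cuts versican, rose by 0.48 ± 0.05 (adjusted p = 0.00919), whereas Adamts8 was at -0.73 ± 0.08 (adjusted p = 0.01) and Adamts15 at -0.39 ± 0.07 (adjusted p = 0.0397). Of the 16 family members, inhibitors and substrates tested these were the 3 called, and Adamts4 at -0.44 and Adamts7 at -0.37 were not. Versican itself, Vcan, was well above background on 1 of 16 arrays and was not tested. Among the 9 tested poly(A) polymerases and terminal nucleotidyltransferases, Tent5c, a paralog of Tent5b, was lower, at -0.48 ± 0.07 (adjusted p = 0.0231). Tut4, which adds uridines to RNA, was at -0.47 and Tent4a at -0.22, and neither was called. The lists beside the remaining members had 0 genes called. They gave -0.49 for Eng, the co-receptor through which LRG1 is known to act, -0.33 for Id3, -0.16 for Trim36, -0.061 for Mid2, -0.020 for Fam89b, 0.039 for Adar and -0.29 for Dpp4, a protease that inactivates CXCL12. The CXCL12 receptor genes Cxcr4 and Ackr3 were well above background on 3 and 0 of 16 arrays, the LRG1-linked receptor gene Acvrl1 on 0 and the editing enzyme gene Adarb2 on 0.

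**Figure D4:**
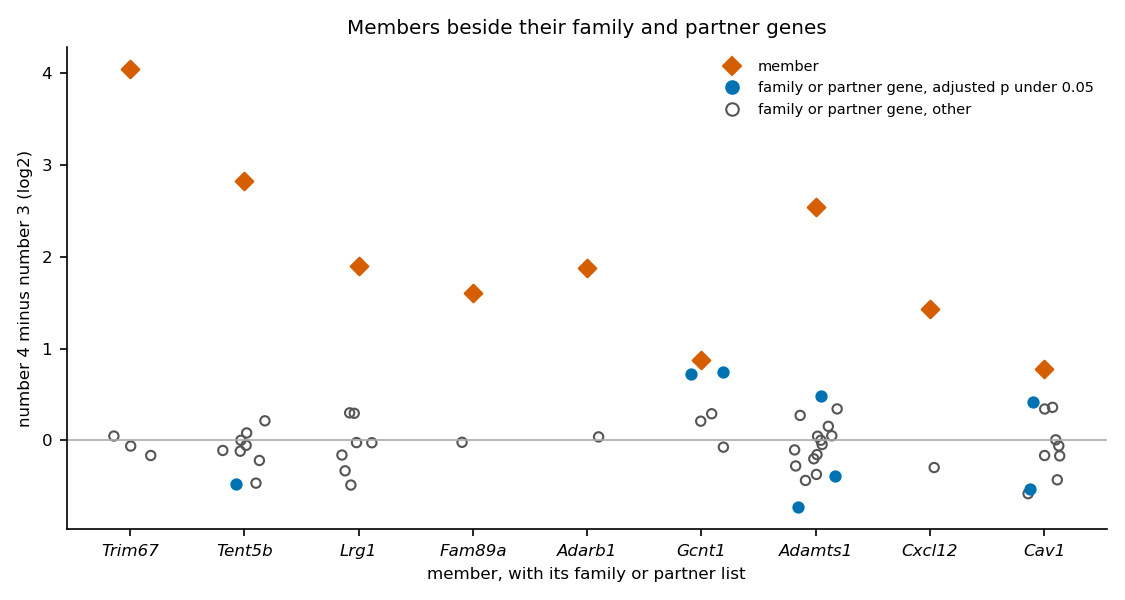
Number 4 minus number 3 (log2) for each of the 9 genes (diamonds) and for the tested genes of its family or partner list (circles, filled where the limma adjusted p is under 0.05). The diamonds lie between 0.78 and 4.05, and the circles between -0.73 and 0.75.

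For each member the 3 genes most like it were taken as those with the smallest mean absolute difference from it over the 12 unused arrays, after each gene was centred on its own mean. Per1 was the nearest gene to Tent5b, at 0.16, where Tent5b itself deviated from its mean by 1.44 on average, followed by B4galnt1 at 0.22 and Plin4 at 0.25. Trim67 had looser likenesses, Arrdc2 at 0.68, Per1 at 0.69 and Plin4 at 0.93, against its own mean deviation of 2.17. Adarb1 was closest to Wipf3, at 0.10, with Eps8 also among the 3, at 0.13, and Lrg1 to Klf15 at 0.16, Wipf3 and Kcnab1. Lrrc10, a heart-specific leucine-rich repeat gene, was nearest to both Fam89a, at 0.11, and Cxcl12, at 0.12. After it came Aspn and Grap for Fam89a, and Cys1 and Ctrb1 for Cxcl12. Gcnt1 was nearest to Pou3f1, Helt and Pgm3, at 0.07 to 0.08, Adamts1 to Cldn2, Prr15l and Sphk1, at 0.18 to 0.19, and Cav1 to Mpzl2, Chsy1 and Atf6, at 0.05 to 0.07.

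Genes lying within 200 kb of a member were looked at as well, a rule added after it was seen that Trim67 and Fam89a lie 39.5 kb apart in assembly GRCm38.p6. Of 53 such neighbours tested, 4 were higher on number 4 and 0 lower, against 1.6% of all genes higher. Beside Lrg1 lay Plin4 and Plin5, which coat lipid droplets. Plin4, 9.7 kb away, rose by 2.34 ± 0.15 (adjusted p = 0.00165), and Plin5, 2.1 kb away, by 0.90 ± 0.14 (adjusted p = 0.0288). Sema6b, 1.1 kb from Lrg1 on its other side, was at -0.013, and Lrg1 had 21 tested neighbours in all. Agt, which encodes angiotensinogen and lies 170.6 kb from Fam89a, rose by 1.26 ± 0.16 (adjusted p = 0.0141). Arv1, which overlaps Fam89a, was at -0.009, and 2810004N23Rik, 4.6 kb from Trim67, at 0.18. Cav2, 17.2 kb from Cav1, is the caveolar gene already given. Trnp1, 3.2 kb from Tent5b, was at 0.52 (adjusted p = 0.0579) and Adamts5, 55 kb from Adamts1, at 0.27 (adjusted p = 0.152). Cxcl12 had 0 tested neighbours in this window, and Adarb1 and Gcnt1 had 7 and 2, of which 0 were called.

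**Figure D5:**
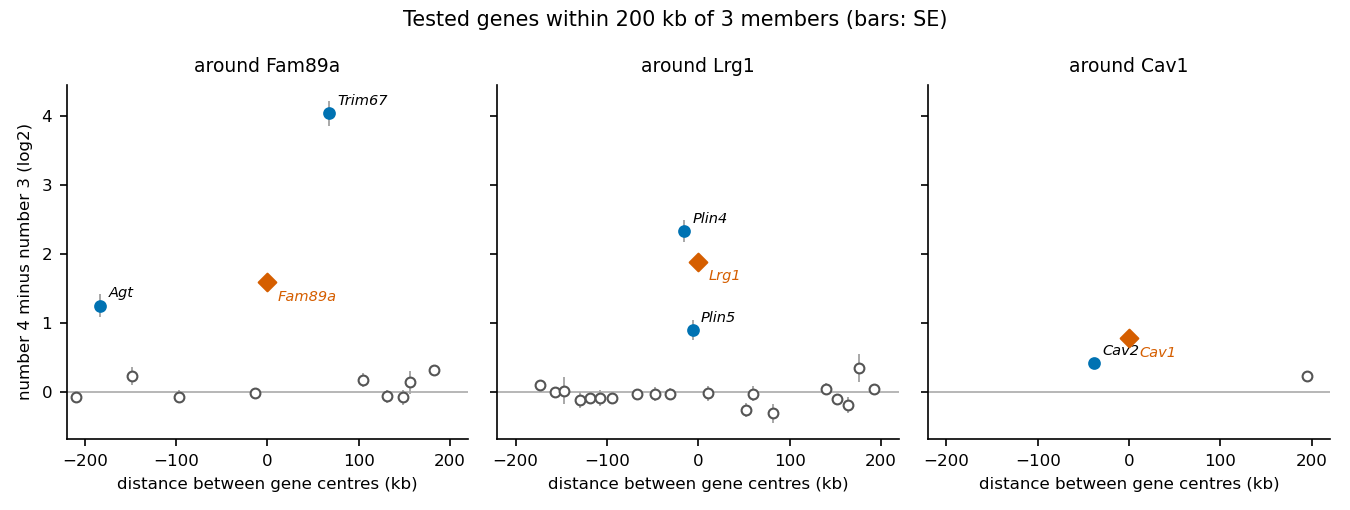
Number 4 minus number 3 (log2, bars are SE) for tested genes within 200 kb of Fam89a, Lrg1 and Cav1, by distance between gene centres in kb, with the named member as a diamond and called neighbours filled. Plin4 and Plin5 stand beside Lrg1 at 2.34 and 0.90, while most open circles lie near 0.

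Markers of other cell types were set beside the number 4 against number 3 result. Of 5 endothelial markers 1, the VEGF receptor gene Kdr, was well above background throughout, and it rose by 0.78 ± 0.06 (adjusted p = 0.00335). The summed linear level of the 5 lay between 1.05 and 1.32 on the arrays numbered 3 and between 1.78 and 2.25 on those numbered 4, with Pecam1 and Cdh5 above background on 0 arrays. Kdr alone made up 97.2% to 99% of that sum, so it restates the one gene. The sum of the 6 fibroblast markers lay between 29.0 and 31.9 and between 24.4 and 27.9, with Col1a1, a collagen gene, making up 99.2% to 99.3% of it. Of the 4 fibroblast markers tested 0 were called, with Col1a1 at -0.21 and Dcn at 0.15. Among 9 cardiomyocyte markers Sln, the inhibitor of the calcium pump in atrial muscle, rose by 0.90 ± 0.07 (adjusted p = 0.00283), and the other 8 were not called. The part of these shifts in the result was not tested. All samples were the HL-1 line, without the other cells of the heart. In such a culture, fewer cells expressing a gene and less RNA per cell cannot be told apart.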

How the data were processed

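RNA of HL-1 cells was hybridised to 16 single-colour Agilent arrays. The submitters' processing notes name Agilent Feature Extraction 12. The signal used is a linear intensity with background already subtracted, per the file headers. A deposited table of log2 values for the same arrays, with a median of 4.70 in each column, served as an alternative only. Each column matched its own array better than any other (r of at least 0.999 over probes), from which the log2 scale was read. The sources used here do not give its normalization.

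Groups and numbers came from the labels. Control spots and flagged outliers were dropped, spots of a probe averaged, and the 75th percentile of each array subtracted on the log2 scale. Of 41174 probes, the 24453 that were well above background throughout some label's 4 arrays were kept. Accessions matched RefSeq genes (assembly GRCm38.p6) for 28223 probes, and an accession without a match was counted as a gene of its own. Each gene kept its probe with the highest mean, which left 17771 genes, 13030 with a symbol and 4741 without. Limma 3.58.1 (lmFit, eBayes with trend, R 4.3.3) was fitted on the 12 arrays outside the pick with treatment as the term, and on the 8 arrays numbered 3 and 4 with label as a block. P-values were adjusted over all genes (Benjamini-Hochberg, two-sided), and a gene was called under 0.05. The p-values cover the spread between these arrays.

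Slide 1 held Vehicle 1-2 and Dex 1-2, slide 2 Vehicle 3-4 and E2 1-2, slide 3 Dex 3-4 and Dex+E2 1-2, and slide 4 E2 3-4 and Dex+E2 3-4. Same-numbered arrays of E2 and Dex+E2 deviated together to unlike degrees (r = 0.463, 0.127, 0.29 and 0.106 across genes for numbers 1 to 4). For number 2 the Dex+E2 array was closer to an E2 array of another number. A fit with number as a block was therefore run. The fitting code was tested on simulated data. Named are the 9 members, called family genes and up to 2 more per list with the largest difference, 3 like genes per member, of which 1 is not reported here, and Per1. The members and lists were chosen with earlier results of these data known. Neighbours within 200 kb and the genes Agt, Plin5 and Trnp1 among them were chosen after values were seen.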

Additional observations from a re-analysis of the deposited data

Results flagged for a closer look

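In 12 of 36 sets of 4 arrays examined, 1 array stood apart by Dixon's ratio, the gap to the nearest array over the whole range of the set, where chance gives about 1 in 20. The 9 genes were measured on the same arrays and moved together, so these sets are not independent and their number cannot be read against that rate. E2 4 and Dex+E2 3, the arrays whose Per1 and member levels went against their labels, account for 11 of the 12. E2 4 was the array apart among those labelled E2, and the highest, for 6 genes. The ratio was 0.9 for Trim67, 0.899 for Tent5b, 0.832 for Lrg1, 0.941 for Adarb1, 0.896 for Adamts1 and 0.911 for Cav1. Dex+E2 3 was the array apart among those labelled Dex+E2, and the lowest, for 5 genes. There the ratio was 0.927 for Trim67, 0.895 for Tent5b, 0.892 for Adarb1, 0.834 for Adamts1 and 0.96 for Cav1. For Lrg1, Dex 3 was the lowest of the 4 arrays numbered 3, with a ratio of 0.836. Fam89a, Gcnt1 and Cxcl12 had no array apart in these sets.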

How the results depend on the processing

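Of 529 values recomputed under another setting, 479 were counted as unchanged, as were 451 of 492 with 1 array left out. In the fit of number 4 against number 3, leaving out either array of a label removed the same pair, so those values are not all separate checks. For a single gene, a turn of direction counted as a change. A median of the members could count as unchanged although its sign turned. Examples are Dex+E2 against E2 with slide as a fixed block (-0.033) and E2 against Vehicle without Vehicle 4 (0.72). The array number as a replicate block changed no call in the 5 treatment comparisons, with 0 members and 0 genes called in each. For Dex+E2 against E2, members called stayed at 0 throughout. Lrg1 turned to -0.059 with normexp. With slide as a fixed block, and within slide 4 alone, Tent5b was at -0.20, Lrg1 at -0.092, Fam89a at -0.10, Adarb1 at -0.002, Gcnt1 at -0.15 and Cxcl12 at -0.033. For Dex against Vehicle on numbers 3 and 4, signs turned with normexp (Trim67 -0.46, Adarb1 0.093, Gcnt1 0.068, Cxcl12 0.15), quantile normalization (Tent5b 0.11), the deposited table (Tent5b 0.10), the mean of probes (Gcnt1 0.044, Cxcl12 0.073), slide as a fixed block (Trim67 -4.71, Fam89a -1.51, Adamts1 -1.83, Cav1 -0.68) and slide as a random block (Trim67 -0.37, Fam89a -0.022, Adamts1 -0.079). With 1 array left out, Trim67 ranged from -1.97 to 2.23, Tent5b from -1.51 to 1.46, Lrg1 from -1.29 to 0.69, Fam89a from -0.70 to 0.99, Adarb1 from -1.09 to 0.91, Gcnt1 from -0.66 to 0.44, Adamts1 from -1.12 to 1.37, Cxcl12 from -0.82 to 0.71 and Cav1 from -0.38 to 0.62. No member was called in any of these settings, and the cause of the turns was not tested.

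Genes called without the filter on dim probes numbered 15 for Dex against Vehicle, 1 for E2 against Vehicle, 15 for Dex+E2 against Dex and 6 for the interaction, and without a trend in the variance prior 2 for the first and 2 for the third. With 1 array left out they ranged from 0 to 145, 0 to 72, 0 to 154 and 0 to 104, the highest without Dex 4, Vehicle 4, Dex 4 and Dex 4. A lone remaining array is then assumed to vary like the other groups.

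From number 3 to number 4, the main fit called 552 genes, and 12 other settings called from 153 to 741. The genes called were 237 without the filter (31758 genes tested), 359 without the trend, and 332 with 12 arrays. They were 161 to 554 with 1 array left out, and 154, 153 and 191 without both Dex, both E2 or both Dex+E2 arrays, a choice made after seeing the data. Fewer arrays entered these fits. Members called ranged from 6 to 9. Without the filter Cav1 had an adjusted p of 0.0655. With normexp 7 of 9 genes, in place of 9, did not overlap between the arrays with Per1 above and below 0, and the members' median from number 3 to 4 was 1.01. Normexp used the median spot signal, because the files hold no mean spot signal. All 9 probes were well above background on 16 arrays, yet their differences still moved with the background correction.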

Other observations

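Fam89a and Cxcl12 were lower on the arrays numbered 3 and 4 than on those numbered 1 and 2 at either level of Per1, among the 12 arrays outside the pick. Where Per1 was high, Fam89a was at 1.16 and 1.28 on Dex+E2 1 and 2 and between 0.73 and 0.88 on number 4. Where Per1 was low, it was at -0.34 and -0.33 on E2 1 and 2 and between -0.96 and -0.67 on number 3. Cxcl12, the chemokine gene, was at 3.51 and 3.64 against 2.94 to 3.47 where Per1 was high, and at 2.16 and 2.09 against 1.57 to 2.00 where it was low. This order held for 591 of 17739 genes (3.33%), and for 2 of 9 members. It was noticed in the data and has no test.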
